A study of Mus musculus with 12 samples.

Results

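WNT genes were followed across pituitary tumors of POMC KO mice and normal mouse pituitary. The list was drawn up with earlier results of these data known. It held 43 genes of this signaling pathway: 7 ligands, 13 receptors, 11 antagonists and 12 effectors. Of these, 42 had a probe set that named that gene alone, out of 18193 genes on the array, and the probe set of the highest mean over the arrays stood for its gene. Tcf7 had none. The 12 arrays were of the Affymetrix Mouse Genome 430 2.0 type, on which short probes capture labeled RNA, and signals are given on the log2 scale, where a difference of 1 is a fold change of 2. A probe set was tested when its signal reached 5.74, the median of all values, on at least 2 arrays, and 29 of the 43 genes were tested.

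The arrays held pituitary RNA of 3 groups of mice, for which the sources used here name no treatment. In homozygous POMC KO mice (2 arrays) both copies of the gene for pro-opiomelanocortin, the precursor of ACTH and melanocyte-stimulating hormone, were disrupted, and in heterozygous POMC KO mice (8 arrays) a single copy was. The reference was normal mouse pituitary (2 arrays). The series description counts as many mice as arrays in each group, while the study's methods speak of pooled normal pituitary, and which holds for the normal arrays was not settled. The tumors arose spontaneously in both genotypes and serve as a model of nonfunctioning pituitary adenoma. They are whole tissue, and the strain, age and sex of the mice on the arrays are not given in the sources used here. The comparisons asked which WNT genes differ between each kind of tumor and normal pituitary, and between the tumors of both genotypes.

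The 10 tumor arrays fell in 5 pairs that were nearly the same. Within a pair the correlation of the tested probe sets was 0.9966 to 0.9974 and 0 to 2 probe sets differed by over 2-fold, whereas 242 did between the 2 normal arrays. The mean of a pair was used as 1 sample, which left 1 homozygous tumor, 4 heterozygous tumors and 2 normal samples. Whether each sample is a separate animal is not settled by these sources, so p-values measure the spread between these samples only, which may be technical, and the spread of the homozygous tumor is taken from the other groups. The targeted gene matched the homozygous label, while the heterozygous tumors were not below the normal samples. Pomc stood at 7.18 in the homozygous tumor, at 15.15 to 15.30 in the heterozygous tumors and at 15.08 and 15.11 in the normal samples. Xist, which is transcribed in female cells, stood at 11.20 in the homozygous tumor, at 4.58, 10.93, 5.001 and 11.25 in heterozygous tumors 1 to 4, and at 5.07 and 4.57 in the normal samples.

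WNT proteins are secreted ligands that bind Frizzled receptors together with the co-receptors Lrp5 and Lrp6. In the canonical branch this stops a destruction complex built on Axin and Apc, in which Gsk3b phosphorylates beta-catenin (Ctnnb1), and beta-catenin then reaches the nucleus and acts with TCF and LEF factors. R-spondins acting through Lgr receptors raise the amount of Frizzled at the cell surface by restraining the ubiquitin ligases Rnf43 and Znrf3. In the developing pituitary the pathway takes part in the growth of the gland and the specification of its cells.

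Of the 9 WNT genes called in heterozygous tumors, 5 encode receptors. In these tumors 5 of 12 tested receptor genes fell, among them 4 of 9 Frizzled genes, while 0 of 8 tested effector genes passed the threshold in either direction. Of the 29 tested genes, 7 (24.1%) fell in heterozygous tumors, and 2 (6.90%) rose. Over all 12305 tested genes 4.5% were called lower and 5.57% higher. A call needed a change of more than 2-fold together with a p, adjusted over all tested probe sets, below 0.05. The median log2 fold change was -0.33 over the tested WNT genes and 0.0017 over all tested genes. Of the 29, 21 lay below 0, against 49.9% of all tested genes. The list was drawn up with earlier results known, which by itself can set its shares and medians apart from those of all genes. Without heterozygous tumor 3 the median of the WNT genes was -0.16. In the homozygous tumor 2 of 29 fell (6.90%, against 1.3% of all genes) and 0 rose (against 1.43%), with a median of -0.25 against -0.03. At an unadjusted p under 0.05 the homozygous tumor had 8 lower and 3 higher, against 10.2% and 9.03% of all tested genes. A one-way test over the 3 groups counted the 12 arrays as separate samples. It called 4 lower and 1 higher, against 2.61% and 3.27% of all tested genes. Its p is for any difference among the groups, and only the fold change compares the homozygous tumor with normal pituitary. The 2 genes that fell in the homozygous tumor were Fzd1 and Sfrp5. When the Xist level entered the fit, they were Fzd1 (log2 fold change -1.57, adjusted p = 0.0271) and Fzd4 (-1.25, adjusted p = 0.0427). In bulk tissue, fewer cells of a type and less RNA per cell cannot be told apart.

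A gene that passes the filter only in the group where it is high is bound to differ. Of the 29 tested genes, Lgr5 reached 5.74 in heterozygous tumors only, Sfrp1 on no normal array and Fzd9 on no homozygous array, and none of the 3 was called. The signal was at or above 5.74 on all 12 arrays for 22 of the 29 and for 7 of the 9 genes called in heterozygous tumors. With no filter, all 42 genes on the array gave the same counts of 7 lower and 2 higher in heterozygous tumors and 2 lower and 0 higher in the homozygous tumor. Of the 18193 genes on the array, 3.44% were then lower and 3.83% higher in heterozygous tumors, and 1.04% lower and 0.956% higher in the homozygous tumor.

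**Figure D1:**
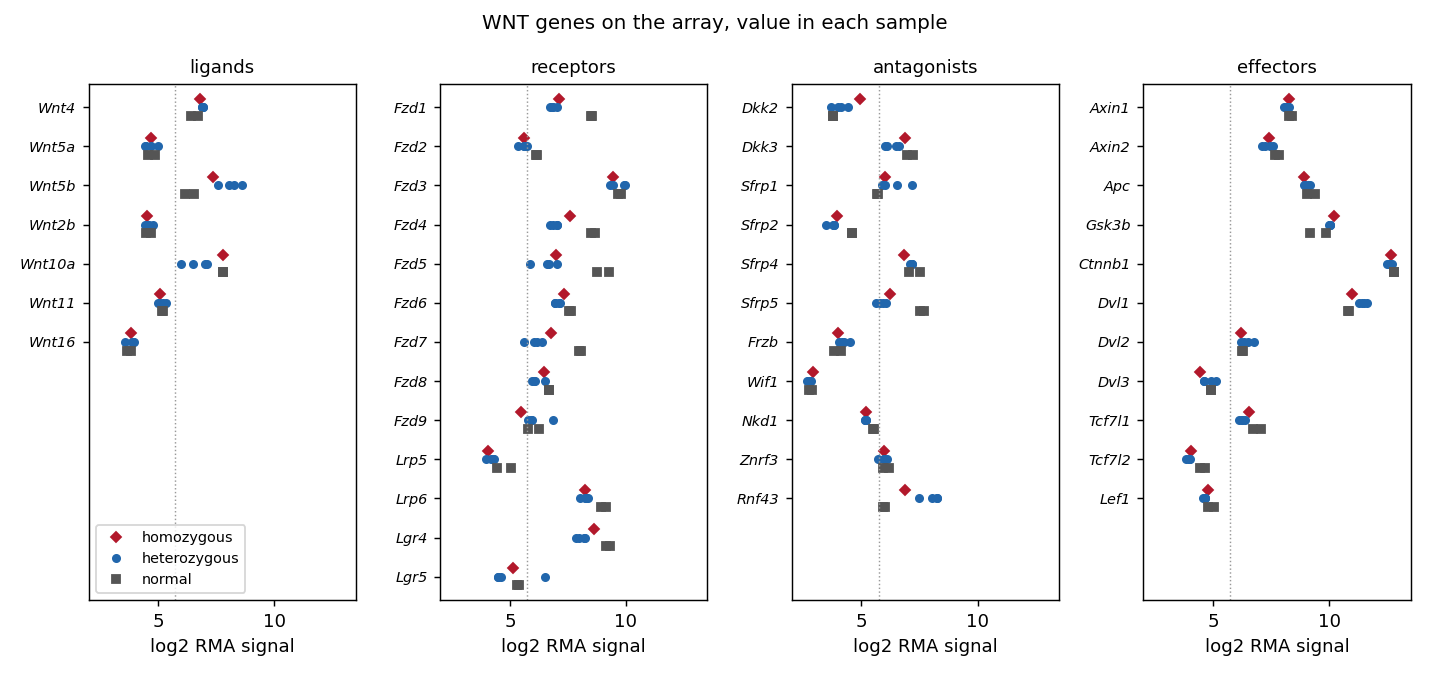
The log2 signal of the 42 WNT genes on the array in each sample, by class, with the homozygous tumor as a diamond, the 4 heterozygous tumors as circles and the 2 normal samples as squares. The dotted line marks the filter value of 5.74, and 13 genes had no array at or above it. Signals of different genes come from different probes and are not comparable with each other.

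Frizzled receptors are membrane proteins with a cysteine-rich domain that binds WNT, and all 9 on the list were tested. Fzd1, Fzd4, Fzd5 and Fzd7 fell in heterozygous tumors. Fzd5 had a log2 signal of 6.99 in the homozygous tumor, 5.88, 6.58, 7.05 and 6.67 in heterozygous tumors 1 to 4, and 9.26 and 8.76 in the normal samples. All tumors were far below both normal samples, and the homozygous tumor lay within the range of the heterozygous ones. The log2 fold change was -2.47 ± 0.31 (SE) in heterozygous tumors (adjusted p = 0.00201), a level 5.52-fold lower than in normal pituitary. In the homozygous tumor it was -2.02 ± 0.44 (adjusted p = 0.0599), short of the threshold.

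Fzd7 had 6.76 in the homozygous tumor, 5.59, 6.37, 6.18 and 6.04 in the heterozygous tumors, and 8.07 and 7.99 in the normal samples. Its log2 fold change was -1.99 ± 0.21 in heterozygous tumors (adjusted p = 0.00105) and -1.27 ± 0.29 in the homozygous tumor (adjusted p = 0.0747). Here the homozygous tumor lay between the heterozygous tumors and the normal samples. The same held for Fzd4, known for its role with Norrin in retinal vessels. Its signal was 7.61 in the homozygous tumor, 6.71, 7.03, 6.87 and 7.05 in the heterozygous tumors, and 8.68 and 8.52 in the normal samples. Fzd4 had a log2 fold change of -1.68 ± 0.14 in heterozygous tumors (adjusted p = 0.000485). In the homozygous tumor it was -0.99 ± 0.19 with an adjusted p of 0.0469, so that the fold change of 1.98 just missed the threshold. Its other tested probe set passed there, with -1.33 (adjusted p = 0.0142), and gave -1.68 in heterozygous tumors.

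Fzd1 fell in both genotypes. It had 7.11 in the homozygous tumor, 6.75, 7.02, 6.84 and 6.86 in the heterozygous tumors, and 8.55 and 8.51 in the normal samples. The samples of each group were close together and the groups did not overlap. Against normal pituitary the log2 fold change was -1.66 ± 0.12 in heterozygous tumors (adjusted p = 0.000318) and -1.42 ± 0.16 in the homozygous tumor (adjusted p = 0.0111). With either normal sample left out, the call in the homozygous tumor was lost, with an adjusted p of up to 0.0700.

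Without heterozygous tumor 1, Fzd5 and Fzd7 were called in the homozygous tumor as well (adjusted p = 0.0337 and 0.0349), and without heterozygous tumor 3 Fzd5 was (adjusted p = 0.0492). Heterozygous tumor 1 was the lowest of the 4 heterozygous tumors for Fzd1, Fzd4, Fzd5 and Fzd7. It was also the lowest for Lhb, Fshb, Tshb, Cga and Gnrhr, genes of gonadotrophs and thyrotrophs. For the gonadotroph factor Nr5a1 it was not (5.07, against 4.99 in heterozygous tumor 2). Lgr4 and Sfrp5 were lowest in heterozygous tumor 2. Tumor 1 was also the furthest from normal over all tested probe sets. Its first array differed by over 2-fold in 3140 and 2941 probe sets from the normal arrays. The first array of heterozygous tumor 4 did in 2211 and 2311. Gh, Prl, Ghrhr and Pou1f1, on the same marker list, are not described here. The part of gonadotrophs and thyrotrophs in the Frizzled values was not tested.

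The other 5 Frizzled genes changed less or did not pass. Fzd2 and Fzd6 had an adjusted p under the threshold in heterozygous tumors but fold changes under 2, with log2 fold changes of -0.58 (adjusted p = 0.0231) and -0.55 (adjusted p = 0.0169). The 2 further probe sets of Fzd2 gave -0.61 and -0.78 in heterozygous tumors. Fzd8 was at -0.55 (adjusted p = 0.0559). Fzd3, which acts in axon guidance and planar cell polarity, had 9.46 in the homozygous tumor, 9.44, 9.92, 9.31 and 9.95 in the heterozygous tumors, and 9.80 and 9.68 in the normal samples. These groups overlapped, and the log2 fold change was -0.09 in heterozygous tumors, with a 95% interval of -0.57 to 0.40. Fzd9 was at 0.11 in heterozygous tumors and at -0.53 in the homozygous tumor, with neither called.

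**Figure D2:**
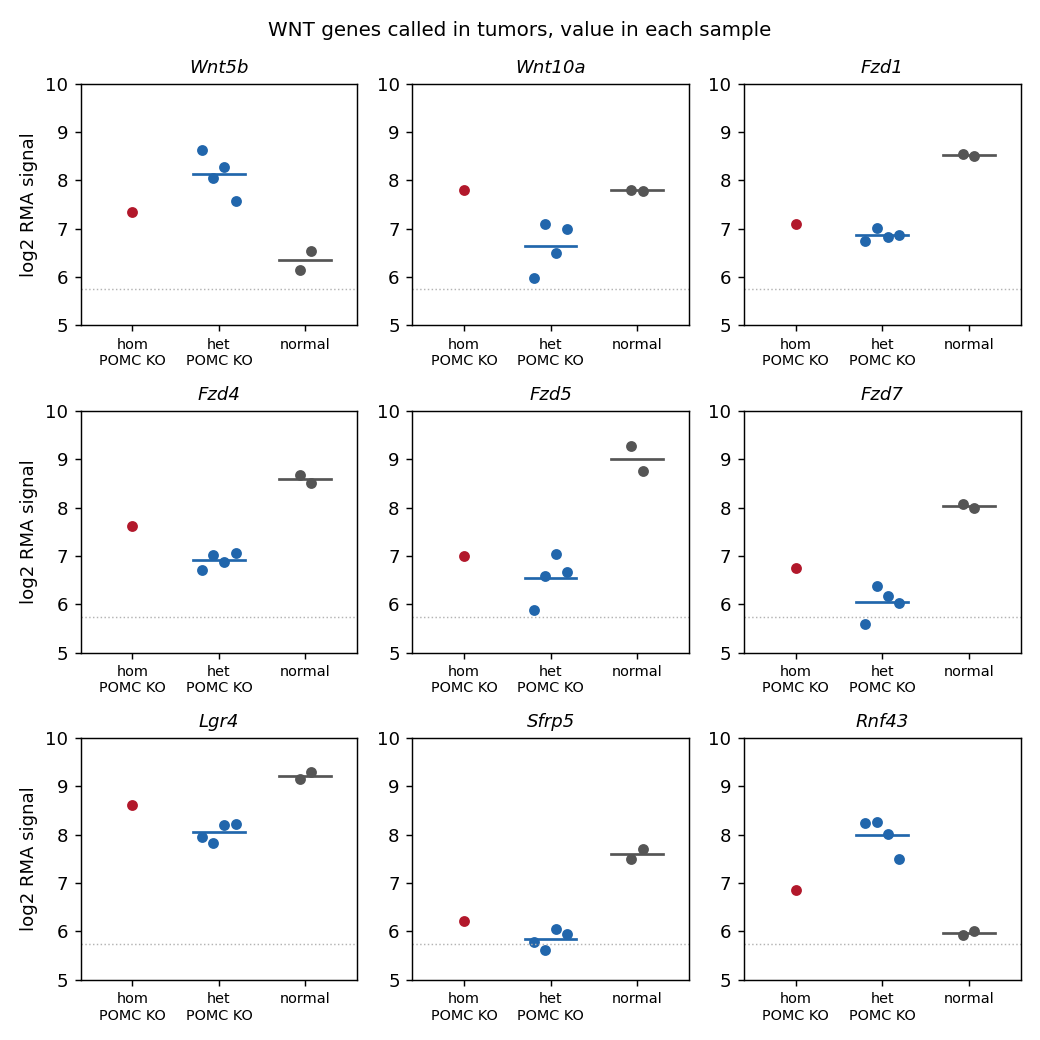
The log2 signal of the 9 WNT genes called in at least 1 comparison, in the homozygous tumor (1 point), the 4 heterozygous tumors and the 2 normal samples, with the mean of a group as a line and the filter value of 5.74 dotted. Heterozygous tumors and normal samples did not overlap for any of the 9, which the thresholds of a call make likely. They did not overlap for most of the uncalled tested WNT genes either, such as Fzd2, Fzd6, Fzd8, Lrp6, Axin2, Ctnnb1 and Dvl1. The share over all genes is not given here, so this separation is not a trait of the called genes or of WNT genes. Wnt10a of the homozygous tumor (7.79) was level with the normal samples.

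Among the co-receptors and R-spondin receptors, Lgr4 fell and Lrp6 changed by less than 2-fold. Lgr4, a receptor for R-spondins, had 8.61 in the homozygous tumor, 7.96, 7.83, 8.20 and 8.23 in the heterozygous tumors, and 9.15 and 9.29 in the normal samples. All tumors were below the normal samples. Lgr4 differed from normal pituitary by a log2 fold change of -1.17 ± 0.15 in heterozygous tumors (adjusted p = 0.00211) and -0.61 ± 0.21 in the homozygous tumor (adjusted p = 0.183). Lrp6 had 8.23 in the homozygous tumor, 8.39, 8.28, 8.02 and 8.23 in the heterozygous tumors, and 9.15 and 8.93 in the normal samples. Its log2 fold change was -0.81 in both comparisons with normal pituitary, with adjusted p = 0.00688 in heterozygous tumors and 0.0833 in the homozygous tumor, and its other tested probe set gave -0.36 in heterozygous tumors (adjusted p = 0.384). Lrp5 was below the filter on every array. Lgr5, a receptor known as a mark of stem cells in the gut, was at 5.16 in the homozygous tumor, at 4.48, 4.60, 4.50 and 6.49 in the heterozygous tumors and at 5.31 and 5.40 in the normal samples. Heterozygous tumor 4 stood alone above the filter value.

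Of the 3 tested ligands, Wnt5b rose and Wnt10a fell in heterozygous tumors. Wnt5b, a ligand known mostly for signaling without beta-catenin, had a signal of 7.35 in the homozygous tumor, 8.63, 8.06, 8.28 and 7.56 in the heterozygous tumors, and 6.15 and 6.54 in the normal samples. Every tumor was above both normal samples and the homozygous tumor was below every heterozygous one. Wnt5b had a log2 fold change of 1.78 ± 0.28 in heterozygous tumors, a level 3.44-fold higher (adjusted p = 0.00486), and its other probe set gave 2.20 (adjusted p = 0.00117). In the homozygous tumor it was 1.002 ± 0.40 (adjusted p = 0.241). Without normal sample 1 the call in heterozygous tumors was lost, with an adjusted p of 0.0544.

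Wnt10a, a ligand of the canonical branch, had 7.79 in the homozygous tumor, 5.97, 7.09, 6.50 and 7.00 in the heterozygous tumors, and 7.81 and 7.79 in the normal samples. The heterozygous tumors were spread over more than 2-fold and all lay below the other samples. Its log2 fold change was -1.16 ± 0.30 in heterozygous tumors (adjusted p = 0.0325) and -0.0041 ± 0.43 in the homozygous tumor (adjusted p = 0.997). The call rested on few samples: it was lost without heterozygous tumor 1 or 3 and without either normal sample, with an adjusted p of up to 0.155. Wnt4, which acts in the development of the gland, was at 0.36 in heterozygous tumors (adjusted p = 0.0699). Wnt5a, Wnt2b, Wnt11 and Wnt16 were below the filter on all 12 arrays.

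Among the antagonists, Rnf43 rose and Sfrp5 fell. Rnf43, a membrane ubiquitin ligase that removes Frizzled from the cell surface and is itself a known target of beta-catenin in the gut, had 6.86 in the homozygous tumor, 8.24, 8.26, 8.02 and 7.49 in the heterozygous tumors, and 5.92 and 6.02 in the normal samples. The 3 groups did not overlap. Against normal pituitary the log2 fold change was 2.03 ± 0.22 in heterozygous tumors, a level 4.09-fold higher (adjusted p = 0.00122), and 0.89 ± 0.31 in the homozygous tumor (adjusted p = 0.192). Znrf3, its close relative, did not pass in either, with -0.11 in heterozygous tumors (95% interval -0.44 to 0.23) and -0.10 in the homozygous tumor (95% interval -0.57 to 0.37).

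Sfrp5, a secreted protein that binds WNT in place of the receptor, fell in both genotypes. It had 6.22 in the homozygous tumor, 5.79, 5.62, 6.04 and 5.94 in the heterozygous tumors, and 7.50 and 7.71 in the normal samples. Sfrp5 had a log2 fold change of -1.76 ± 0.15 in heterozygous tumors (adjusted p = 0.000536) and -1.39 ± 0.21 in the homozygous tumor (adjusted p = 0.0249). The call in the homozygous tumor was lost without either normal sample and when the Xist level entered the fit, with an adjusted p of up to 0.107. Its other tested probe set gave smaller values, -0.70 in heterozygous tumors (adjusted p = 0.00958) and -0.93 in the homozygous tumor (adjusted p = 0.0490), both under 2-fold.

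The related Sfrp1 and Sfrp4 did not pass in either genotype. Sfrp1 had 5.997 in the homozygous tumor, 7.19, 6.01, 6.54 and 5.87 in the heterozygous tumors, and 5.68 and 5.71 in the normal samples, with a log2 fold change of 0.71 in heterozygous tumors (adjusted p = 0.184). When the Xist level entered the fit, Sfrp1 was called higher there, at 1.18 (adjusted p = 0.00848). Sfrp4 was at -0.14 in heterozygous tumors and at -0.46 in the homozygous tumor. Dkk3, a divergent member of the Dickkopf family of secreted inhibitors, was at -0.80 in heterozygous tumors (adjusted p = 0.0275), under 2-fold, while its other probe set was called there, at -1.32 (adjusted p = 0.00692). Dkk2, Sfrp2, Frzb, Wif1 and Nkd1 were below the filter. With no filter, Sfrp2 was at -0.87 in heterozygous tumors (adjusted p = 0.00467) and Nkd1 at -0.33 (adjusted p = 0.0424), from signals that did not exceed 4.61 and 5.54 in any sample.

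None of the 8 tested effector genes met both thresholds, and their log2 fold changes ran from -0.65 to 0.62 in heterozygous tumors and from -0.34 to 0.70 in the homozygous tumor. At an adjusted p alone, without the fold change, Dvl1 was higher and Tcf7l1 lower in heterozygous tumors. Ctnnb1 had 12.64 in the homozygous tumor, 12.58, 12.70, 12.50 and 12.61 in the heterozygous tumors, and 12.77 and 12.80 in the normal samples. The log2 fold change was -0.19 in heterozygous tumors (95% interval -0.44 to 0.07) and -0.14 in the homozygous tumor (95% interval -0.50 to 0.21). These intervals leave out a 2-fold change of beta-catenin mRNA. The level of the protein was not measured.

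Axin2, a scaffold of the destruction complex and a widely used target gene of the canonical branch, had 7.43 in the homozygous tumor, 7.56, 7.25, 7.12 and 7.47 in the heterozygous tumors, and 7.66 and 7.83 in the normal samples. All tumors were below the normal samples by small steps, with a log2 fold change of -0.40 in heterozygous tumors (adjusted p = 0.107, 95% interval -0.76 to -0.04). Axin1 was at -0.17 and Apc at -0.19 in heterozygous tumors, and neither passed. Gsk3b was at 0.51 in heterozygous tumors (adjusted p = 0.0959) and differed between the 2 normal samples, 9.88 and 9.16, by more than any tumor did from another. Its 6 tested probe sets lay on both sides of 0.

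Dvl1 carries the signal from Frizzled to the destruction complex. It had 10.97 in the homozygous tumor, 11.49, 11.43, 11.61 and 11.28 in the heterozygous tumors, and 10.86 and 10.81 in the normal samples. The log2 fold change was 0.62 in heterozygous tumors (adjusted p = 0.0126) and 0.14 in the homozygous tumor (adjusted p = 0.736). Its other probe set was at 0.23 in heterozygous tumors (adjusted p = 0.378). Dvl2 was at 0.20 in heterozygous tumors and did not pass. Tcf7l1, a TCF factor that acts mostly as a repressor, was at -0.65 (adjusted p = 0.0166) by the probe set that stood for it and at -0.99 (adjusted p = 0.0159) by the other, both under 2-fold. Dvl3, Tcf7l2 and Lef1 were below the filter. With no filter, Tcf7l2 was at -0.60 in heterozygous tumors (adjusted p = 0.0102).

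**Figure D3:**
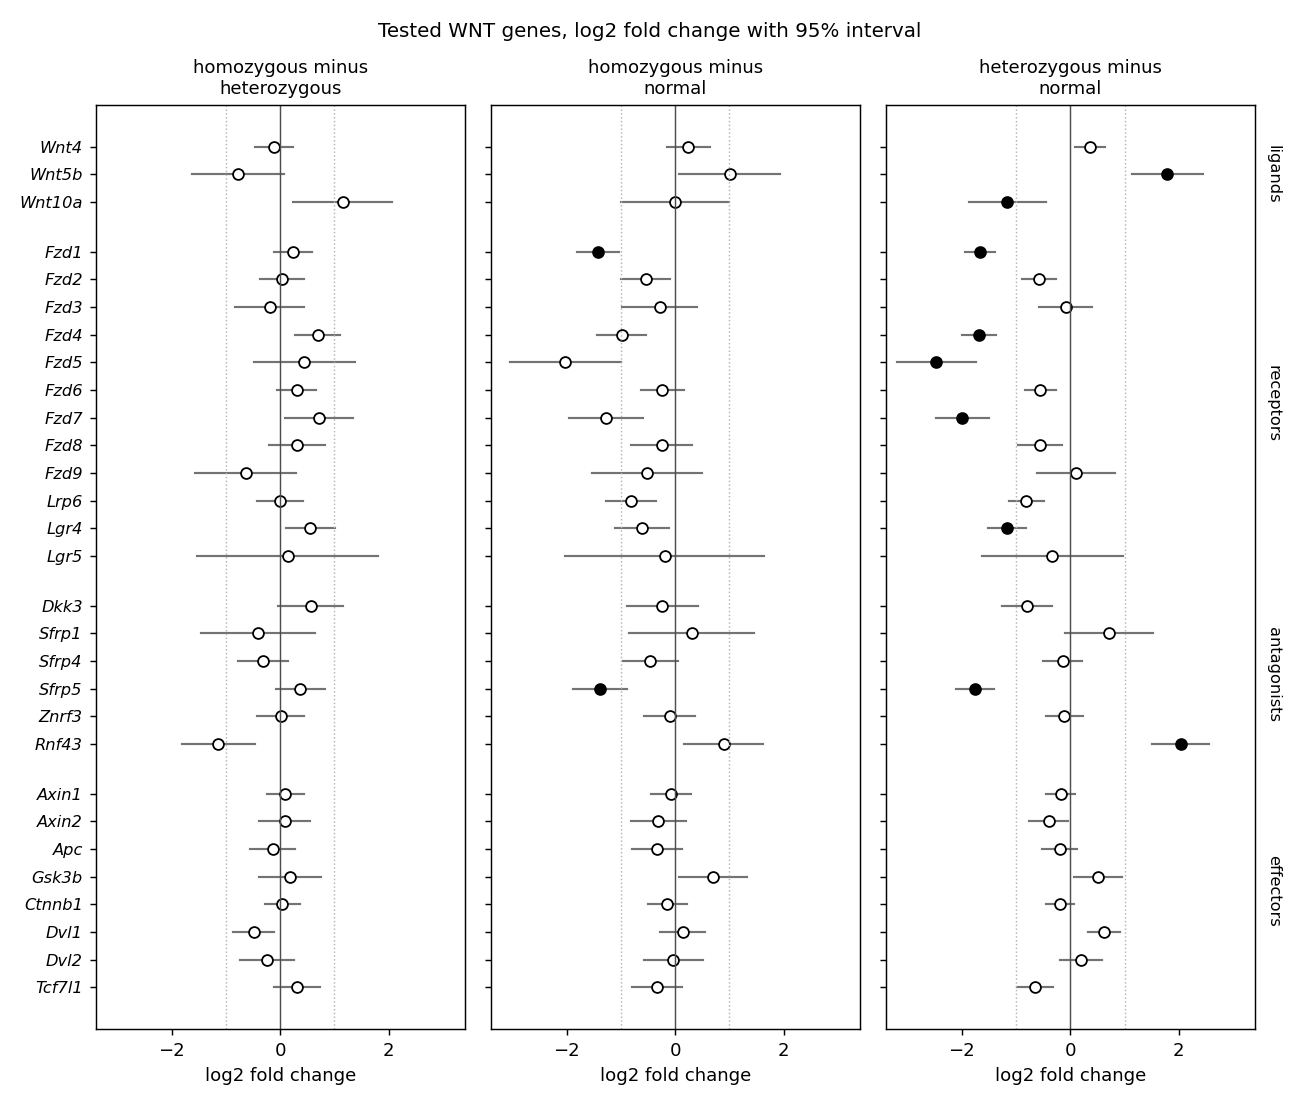
The log2 fold change (circle) and its 95% interval (line) for the 29 tested WNT genes, by class, in the homozygous tumor against heterozygous tumors, in the homozygous tumor against normal pituitary and in heterozygous tumors against normal pituitary. Filled circles passed an adjusted p of 0.05 and a fold change over 2, and dotted lines mark a 2-fold change. The 12 receptors lay below 0 in the homozygous tumor against normal pituitary, and 11 of them did in heterozygous tumors (10 with arrays centred on housekeeping genes).

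In the direct comparison of both kinds of tumor, 0 of 29 WNT genes were lower and 0 were higher in the homozygous tumor, against 0.0488% and 0.228% of all tested genes. The smallest adjusted p was 0.258, while 2 genes lower and 4 higher had an unadjusted p under 0.05, against 5.98% and 4.58% of all tested genes. A one-way test on the 12 arrays, which counts the near-identical arrays as separate, called 1 lower and 1 higher, against 1.01% and 1.8%. Its p is again for any difference among the 3 groups. The largest log2 differences were 1.15 for Wnt10a (95% interval 0.24 to 2.07, adjusted p = 0.409) and -1.14 for Rnf43 (95% interval -1.81 to -0.47, adjusted p = 0.258). Without heterozygous tumor 4, Rnf43 was called, at -1.31 (adjusted p = 0.0242). With a single homozygous sample, a difference of 2-fold was inside the 95% interval for most genes called in heterozygous tumors, such as Fzd5 (-0.49 to 1.37) and Wnt5b (-1.63 to 0.06), but not for Fzd1 (-0.11 to 0.59) or Sfrp5 (-0.08 to 0.82). For 8 of the 9 genes called in heterozygous tumors the homozygous tumor was above or below all 4 heterozygous ones. It was above for Fzd1, Fzd4, Fzd7, Lgr4, Sfrp5 and Wnt10a and below for Wnt5b and Rnf43, in each case on the side of the normal samples. These genes were picked by their heterozygous values, which by itself tends to place another tumor nearer to normal. The share over all genes called in heterozygous tumors is not given here, so the count is not a trait of WNT genes.

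Where a gene had several tested probe sets, these did not always give the same sign. Of 15 such WNT genes, 10 had all of them on the same side of 0 in heterozygous tumors and 8 in the homozygous tumor. Among the genes called by the probe set that stood for them, Wnt5b and Fzd4 were called by the other one too in heterozygous tumors and Sfrp5 was not. For Fzd1, Fzd5, Fzd7 and Lgr4 the other probe set was below the filter, so each call rests on a single tested probe set. The untested one of Fzd5 had a mean of 4.26 in heterozygous tumors and 4.53 in normal samples. Fzd7 had 5.135 and 5.43 there, Lgr4 3.56 and 3.64, and Fzd1 3.95 and 5.21.

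**Figure D4:**
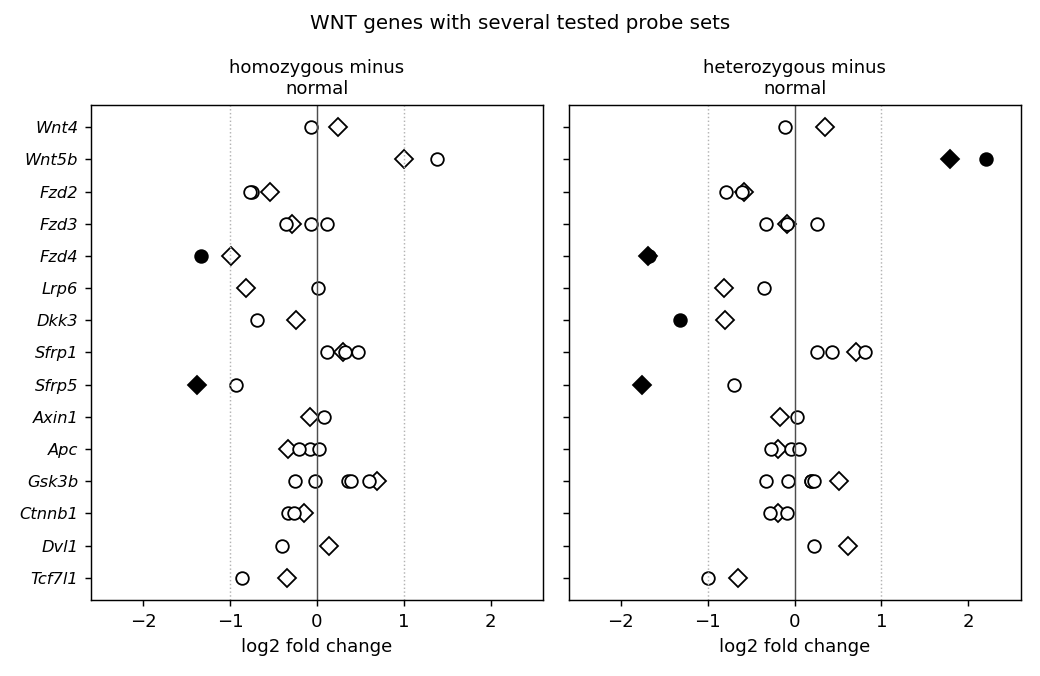
Each symbol is the log2 fold change of 1 tested probe set, for the 15 WNT genes that had several, in the homozygous tumor and in heterozygous tumors against normal pituitary. Diamonds are the probe sets that stood for the gene, circles the others, and filled symbols were called. Wnt5b (1.78 and 2.20) and Fzd4 (both -1.68) agreed in heterozygous tumors, whereas the probe sets of Gsk3b lay on both sides of 0.

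The bases just before the start of transcription are shown for Rnf43 and Wnt5b, the 2 genes that rose, and for the 4 Frizzled genes that fell together, from RefSeq on the mouse build GRCm38.p6. Windows of 250 bases before to 50 after each start were searched for CTTTGAT, a form of the site bound by TCF and LEF factors, on both strands. A window was in the table for 28 of the 43 genes. The motif was in 3.73% of all 32851 windows and in 2 of the 38 windows of WNT genes. Counted by gene, it was in 4.29% of all genes and in 2 of the 28, Wnt5b and Wnt11. Wnt5b had 3 windows, at separate starts, and only 1 of them held the motif, which began 71 bases before the start on the strand of the gene. That window is the one shown. Each stretch below is the last 100 bases before a start, on the strand of the gene, and capitals mark the motif.
Rnf43 (chr11:87662987-87663086, plus strand): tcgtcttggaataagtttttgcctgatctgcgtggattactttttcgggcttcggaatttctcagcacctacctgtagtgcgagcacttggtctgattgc
Wnt5b (chr6:119449387-119449486, minus strand): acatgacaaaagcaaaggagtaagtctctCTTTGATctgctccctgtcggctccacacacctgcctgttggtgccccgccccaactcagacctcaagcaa
Fzd1 (chr5:4758217-4758316, minus strand): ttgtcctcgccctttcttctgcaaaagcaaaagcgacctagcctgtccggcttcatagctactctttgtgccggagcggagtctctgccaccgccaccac
Fzd4 (chr7:89404266-89404365, plus strand): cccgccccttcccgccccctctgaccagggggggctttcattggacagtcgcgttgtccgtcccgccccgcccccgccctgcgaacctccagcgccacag
Fzd5 (chr1:64737751-64737850, minus strand): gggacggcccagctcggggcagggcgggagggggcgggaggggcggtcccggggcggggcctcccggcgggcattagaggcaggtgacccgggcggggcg
Fzd7 (chr1:59482047-59482146, plus strand): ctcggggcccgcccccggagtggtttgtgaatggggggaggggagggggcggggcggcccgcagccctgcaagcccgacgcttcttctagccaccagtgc

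The 2 windows of Rnf43 and those of the 4 Frizzled genes had no match, which says only that these letters are not in them. The share of G and C was 54.0% for Fzd1, 72.7% for Fzd4, 75.7% for Fzd5 and 66.7% for Fzd7, against a median of 52.7% over all windows. They held 16, 32, 38 and 24 CG dinucleotides in that order, against a median of 7. The window of Rnf43 shown above had 46.7% and 10 CG dinucleotides, and its other window had 44.3% and 3. For Wnt5b the window shown had 55.0% and 7, and the other 2 had 53.0% and 4 and 78.0% and 47.

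A list of 71 further WNT genes was counted in the same way, of which 46 were tested. In heterozygous tumors 5 fell and 2 rose, against 4.5% lower and 5.57% higher of all tested genes, and in the homozygous tumor 2 fell and 1 rose, against 1.3% and 1.43%. Ror2, a receptor for Wnt5a that acts without beta-catenin, fell in both genotypes. It had 5.61 in the homozygous tumor, 4.66, 5.13, 5.13 and 5.55 in the heterozygous tumors, and 7.36 and 7.81 in the normal samples. Ror2 reached the filter value on the normal arrays only. It was thus tested because of the group where it is high, so a difference was bound to appear and its calls carry that limit. Ror2 had a log2 fold change of -2.47 in heterozygous tumors (adjusted p = 0.000870) and -1.98 in the homozygous tumor (adjusted p = 0.0356).

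Of the further genes known as targets of the pathway, 3 fell and 1 rose among 5 tested in heterozygous tumors. Ccnd1, which encodes cyclin D1, had 8.93 in the homozygous tumor, 8.12, 8.39, 8.39 and 8.44 in the heterozygous tumors, and 10.18 and 9.85 in the normal samples. Its log2 fold change was -1.68 in heterozygous tumors (adjusted p = 0.000584) and -1.08 in the homozygous tumor (adjusted p = 0.0459). Tnfrsf19 (-1.54) and Bambi (-1.32), a pseudoreceptor of the TGF-beta family, fell in heterozygous tumors. In the homozygous tumor they were at -1.10 (adjusted p = 0.0606) and -0.997 (adjusted p = 0.0964), and neither was called. Cd44, an adhesion receptor also carried by leukocytes, rose in both genotypes, by 1.19 in heterozygous tumors (adjusted p = 0.0119) and 1.92 in the homozygous tumor (adjusted p = 0.0345) on the log2 scale. The remaining calls in heterozygous tumors were Tle4, a corepressor of TCF factors (-1.28), and Rspo4, an R-spondin (1.19). Rspo4 reached the filter value on tumor arrays only, where it is high, so its call has the same limit as those of Ror2. Of 19 further effector genes tested, 0 were called in any comparison.

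Markers of cell types were counted as well, and the lists did not all shift the same way. Over all tested genes 4.5% were called lower and 5.57% higher in heterozygous tumors, and 1.3% and 1.43% in the homozygous tumor. In heterozygous tumors 11 of 14 tested macrophage markers rose and 0 fell, and their summed signal on the linear scale was 5298 in the homozygous tumor, 6734 to 11619 in the heterozygous tumors and 2013 to 2421 in the normal samples. Of the markers of other anterior pituitary cells, 6 of 9 fell in heterozygous tumors and 1 of 9 in the homozygous tumor, and the summed signal was 84137 in the homozygous tumor, 31484 to 76829 in the heterozygous tumors and 103232 to 104041 in the normal samples. Lhb, for example, was at 8.86 in the homozygous tumor, at 6.35, 6.63, 7.80 and 8.33 in the heterozygous tumors and at 12.02 and 12.22 in the normal samples. Glial markers fell for 3 of 8 in heterozygous tumors and 2 of 8 in the homozygous tumor, with sums of 2050 in the homozygous tumor, 2405 to 3348 in the heterozygous tumors and 2353 to 2608 in the normal samples. Stromal markers fell for 3 of 7 in heterozygous tumors, with sums of 3389 in the homozygous tumor, 2883 to 7320 in the heterozygous tumors and 5426 to 5547 in the normal samples, and Tek alone of 7 endothelial markers fell. Of 6 tested markers of melanotrophs and corticotrophs, Pax7 rose (1.48) and Crhr1 (-1.44) and Neurod1 (-2.84) fell in heterozygous tumors, and Pomc alone fell in the homozygous tumor. Crhr1 (2.25) and Neurod1 (2.80) were higher in the homozygous tumor than in heterozygous tumors, and Pomc was lower. The summed signal of the 6 markers was 4212 in the homozygous tumor, 40611 to 45147 in the heterozygous tumors and 38829 to 39515 in the normal samples. Outside the homozygous tumor this sum is mostly Pomc, the disrupted gene, so it does not measure the number of these cells. The median log2 fold change of the 6 was -0.07 in the homozygous tumor against normal pituitary. Itgam, Gfap and Rax were below the filter. The part of these cells in the WNT values was not tested.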

How the data were processed

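The authors deposited log2 signals of 12 Affymetrix Mouse Genome 430 2.0 arrays, made with the Robust Multichip Average algorithm. Per the labels this was done in Affymetrix Expression Console, and per the study's methods in GeneSpring GX. Values of this kind carry no read depth, and the number of arrays limits the precision. Detection calls were not used here. Genes of probe sets came from the platform annotation, in which 34945 of 45101 probe sets named 1 gene, 932 several and 9160 none, besides 64 controls.

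Near-identical arrays were averaged, and limma 3.58.1 in R 4.3.3 was fitted once to the 3 groups over 24486 tested probe sets (7 samples, 4 residual degrees of freedom, prior degrees of freedom 3.36). P-values were adjusted by the Benjamini-Hochberg method over these. The thresholds of the study's methods were kept: a fold change over 2 and an adjusted p under 0.05. The fit was tested on simulated data. Members and lists were chosen with earlier results of these data known. All members are named or counted, called ones with their values in every sample, and other genes only from the lists of further WNT genes and of markers. Alternatives covered averaging, blocking, filter, scaling, probe set, variance model, thresholds, test, Xist and leaving out 1 sample.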

Additional observations from a re-analysis of the deposited data

Results flagged for a closer look

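In the 4 heterozygous tumors, 2 of the 29 tested WNT genes had a sample far from the others by Dixon's criterion, which chance alone meets in about 1 in 20 groups. Lgr5 was at 6.49 in heterozygous tumor 4, against 4.48 to 4.60 in the other 3. Fzd9 was at 6.84 in heterozygous tumor 3, against 5.78 to 5.94 in the other 3.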

How the results depend on the processing

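None of the called WNT genes changed direction under any alternative run. With the 12 arrays as separate samples, 4 genes were called lower in the homozygous tumor than in normal pituitary (Fzd1, Fzd5, Fzd7 and Sfrp5) in place of 2, and 1 lower and 1 higher than in heterozygous tumors in place of 0. The pair of arrays as a random block gave 4 lower than normal. Labels give the groups the same replicate numbers, but samples with the same number did not deviate together (correlations from -0.11 to 0.10), so the numbers do not pair them. With that number as a block, 4 were lower and 1 higher in the homozygous tumor than in normal pituitary, and 3 lower and 3 higher than in heterozygous tumors, and Sfrp1 was called higher in heterozygous tumors than in normal pituitary (1.49, adjusted p = 0.0002). Centring on 5 housekeeping genes gave 5 lower than normal and 2 lower than in heterozygous tumors. That scaling moved the median of all genes to 0.18 in heterozygous tumors and -0.34 in the homozygous tumor against normal and to -0.52 between the tumors. Under it the median of the tested WNT genes was -0.15, -0.56 and -0.41 in these comparisons, the last turned from 0.08, and Wnt10a and Lgr4 lost their calls. The mean of a gene's probe sets gave 4 lower in the homozygous tumor. With no fold threshold 12 were lower in heterozygous tumors. The one-way test gave 4 lower and 1 higher in the homozygous tumor than in normal pituitary, and 1 lower and 1 higher than in heterozygous tumors. Its p is for any difference among the groups. Leaving out 1 sample gave 1 to 2 higher in heterozygous tumors (1 without normal sample 1), 0 to 4 lower in the homozygous tumor than in normal pituitary (4 without heterozygous tumor 1, 0 without either normal sample) and 0 to 1 lower than in heterozygous tumors (1 without heterozygous tumor 4). When a normal sample is left out, the lone one is assumed to vary like the other groups. Fzd1, Fzd4, Fzd5, Fzd7, Sfrp5 and Rnf43 kept their calls in heterozygous tumors under all 19 alternatives. The causes of these differences were not tested. Except for the one-way test and the run with no filter, shares over all genes under the alternatives are not given here. The counts above thus show how calls depend on the processing and are not a trait of WNT genes.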
